A study of Mus musculus with 6 samples.

Results

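The cytosolic ribosomal protein genes were examined in the transcriptome of murine CD4-/CD8- double-negative (DN) thymocytes. A gene was included when its row was marked protein-coding and its name was *Rpl* or *Rps* followed by a digit, or was *Rplp0*, *Rplp1*, *Rplp2* or *Rpsa*. S6 kinase genes, the *Rps19* binding protein and names with -ps in them were left out. The rule found 85 genes among 41457 rows, of which 21949 were protein-coding. There were 52 genes of the large subunit and 33 of the small subunit, and 84 had a read in at least 1 library.

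The series compared 2 groups of 3 libraries from sex- and age-matched mice of 4 to 6 weeks on a C57/B6 background. BirA mice, labelled WT for genotype, expressed the bacterial biotin ligase BirA from the ROSA26 locus and served as controls. Nc1Bio mice carried the same ligase and 1 copy of a bacterial artificial chromosome transgene that spans the murine *Nfatc1* locus and gives a biotin-tagged NFATc1/A. Thus BirA was present in every library, and the groups differed by the transgene. The paper describes the DN thymocytes of this comparison as freshly isolated and names no stimulation for them. DN cells had been obtained by magnetic depletion with anti-CD4 and anti-CD8 microbeads, without a positive sort, and whether each library stands for its own animal is not given by the labels. P-values therefore measure the spread between these libraries.

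Each cytosolic ribosome is built from a small subunit, which binds the mRNA and decodes it, and a large subunit, which joins amino acids and guides the new chain through an exit tunnel. Ribosomal protein mRNAs are among the most abundant of growing cells. In mice many of them start with an oligopyrimidine tract, the TOP motif, through which mTOR and LARP1 set their translation, and Myc is known to raise their transcription. Thymocytes grow and divide quickly after β-selection at the DN stage, and the ribosomal protein Rpl22 is known to be needed there for αβ-lineage cells. Most ribosomal protein genes have processed pseudogenes of near-identical sequence, so a short read often cannot be placed on 1 gene.

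The sequences around the start sites were searched for short motifs. RefSeq start sites in build GRCm38.p6 were given for 65 of the 85 genes, some with several starts, in 77 windows. The lines below give 30 bases each, 15 before and 15 from the start site, 5′ to 3′ on the gene's strand. Capitals mark the pyrimidine motifs CTCTTT and CTTTCC, which overlap as CTCTTTCC. The first 6 were chosen as windows with a motif and from both subunits, and *Rps27l* is shown because it had the lowest p-value of all members in the comparison of the groups.
Rpl28, chr7:4792950-4792979, plus strand: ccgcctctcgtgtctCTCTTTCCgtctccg
Rpl35a, chr16:33056467-33056496, plus strand: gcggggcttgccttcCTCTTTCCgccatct
Rpl18, chr7:45718056-45718085, plus strand: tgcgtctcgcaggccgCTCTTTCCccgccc
Rpl38, chr11:114668565-114668594, plus strand: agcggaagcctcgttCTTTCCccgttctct
Rps27, chr3:90213634-90213663, minus strand: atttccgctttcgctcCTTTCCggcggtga
Rps9, chr7:3704026-3704055, plus strand: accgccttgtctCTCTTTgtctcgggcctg
Rps27l, chr9:66946071-66946100, plus strand: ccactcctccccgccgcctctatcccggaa

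A run of at least 8 pyrimidines lay within the 30 bases in 27 of 65 ribosomal protein genes (41.5%) and in 13.9% of 27025 genes with a RefSeq start. Within 100 bases centred on the start, CTTTCC on the gene's strand was found in 21 of the 65 genes (32.3%), against 5.43% of all genes. CTCTTT was found in 19 (29.2%), against 4.68% of all genes. CGGAAG, an ETS-type motif searched on both strands, was found in 25 (38.5%), against 10.4% of all genes. GGAAA, the core that NFAT proteins bind, was found on either strand in 38 (58.5%), against 29.0% of all genes. Its reverse complement is part of CTTTCC, and 21 of these 38 genes held CTTTCC on the gene's strand. On the gene's own strand GGAAA was found in 7 genes (10.8%), against 15.4% of all genes. These matches describe the letters of the windows and are not binding sites.

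The values were counts of reads per gene, given once for uniquely placed reads and once for all reads including those with several places. The libraries held 11845952 to 15393763 unique gene reads and 16690200 to 21858600 total gene reads. Of all total gene reads, 64.1 to 76.0% were unique. Of the ribosomal protein reads, only 45.6 to 46.5% were unique. Haemoglobin genes took between 6.66 and 26.7% of the total gene reads of a library, so that shares are given below with and without them. Bulk RNA cannot tell fewer cells of a type from less RNA per cell.

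Ribosomal protein genes held 6.50, 5.93 and 6.98% of the unique gene reads of BirA libraries 1, 2 and 3. They held 6.28, 6.84 and 6.39% in Nc1Bio libraries 1, 2 and 3. The ranges overlapped, with a mean of 6.47% ± 0.525 (SD, n = 3) in BirA and 6.50% ± 0.297 (SD, n = 3) in Nc1Bio. On total gene reads the share was 9.67, 9.42 and 11.4% in BirA and 9.73, 11.4 and 8.89% in Nc1Bio. The 2 highest shares, in BirA 3 and Nc1Bio 2, were those of the libraries with the least haemoglobin (7.50 and 6.66%). The lowest share, in Nc1Bio 3, was that of the library with the most (26.7%). Without haemoglobin the total share was 12.1, 10.7 and 12.3% in BirA and 11.4, 12.2 and 12.1% in Nc1Bio. BirA 2 was then the lowest library, and no group lay apart from the other by any of these measures.

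**Figure D1:**
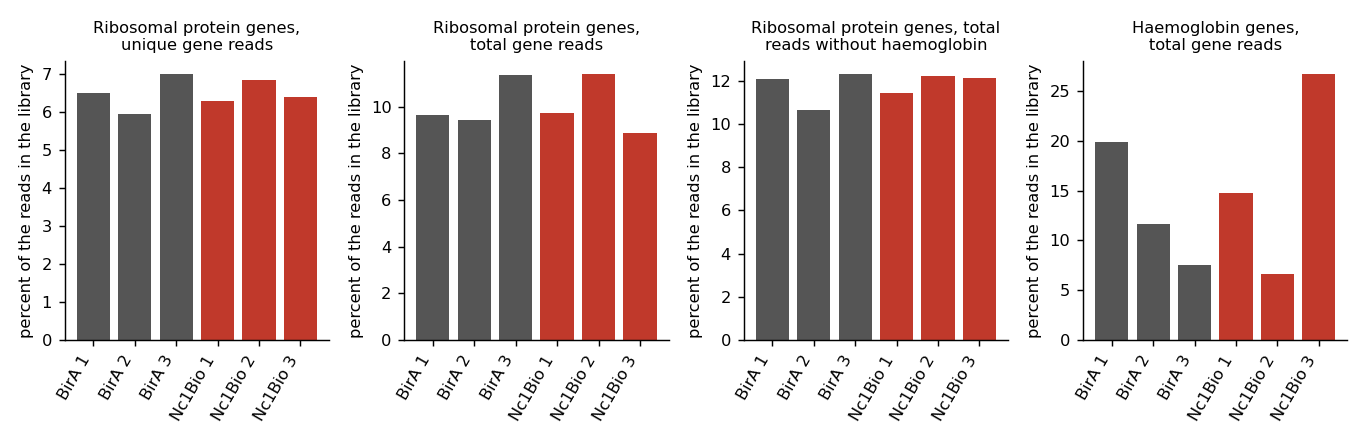
Bars give the percent of the reads of each library (y axis) in the 85 ribosomal protein genes, on unique reads, on total reads and on total reads without haemoglobin genes, and the percent of total reads in haemoglobin genes. BirA libraries are grey and Nc1Bio libraries red. The ribosomal protein shares of both groups overlap in each panel, and Nc1Bio 3 has the lowest share of total reads (8.89%) and the highest haemoglobin share (26.7%).

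How much of a gene could be counted differed widely among the members. Pooled over the libraries, the median member had 37.8% of its total reads placed uniquely. Under 5% was unique in 15 members, 5 to 50% in 36, 50 to 99% in 22 and at least 99% in 11. *Rps3*, *Rps9*, *Rpl8*, *Rpl3l* and *Rpl39l* stood at the top with 100% unique. At the other end were *Rpl24* with 0.0732%, *Rps6* with 0.116%, *Rps27* with 0.139%, *Rps27rt* with 0.224% and *Rpl13* with 0.607%. *Rps6*, the small subunit protein that S6 kinases phosphorylate, had 31 to 59 unique reads but 34215 to 41646 total reads per library. Thus the unique count held almost nothing of this abundant mRNA.

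*Rps12* had few reads beside a row of almost the same name. The gene itself had 276 to 579 total reads per library. The row *Rps12-ps3*, which is marked protein-coding but left out by the rule, had 22524 to 31548 total reads and 0 unique reads. The same was seen in part for *Rpl10*, with 11499 to 17155 total reads beside 8224 to 12794 in the row *Rpl10-ps3*. The values of *Rps12* and *Rpl10* are therefore uncertain.

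The unique share of a member was nearly the same from library to library, with a median range of 1.24 percentage points. It ranged over more than 5 points in 3 members, *Rpl34*, *Rps2* and *Rps12*. In *Rpl34* it was 32.5% in Nc1Bio 1 and 50.3 to 52.6% in the other 5 libraries. Nc1Bio 1 had 2507 unique *Rpl34* reads, and the others had 6321 to 7245. Its total *Rpl34* reads were also the fewest, 7720 against 12389 to 13786. In *Rps2*, a protein at the mRNA entry of the small subunit, the unique share was 19.2% in BirA 2 and 20.4% in Nc1Bio 3, 25.1% in Nc1Bio 1 and 28.1 to 28.7% in the other 3. A single library thus set the *Rpl34* mean of the Nc1Bio group, while the low *Rps2* libraries were of both groups.

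The comparison of Nc1Bio with BirA asks whether the additional tagged NFATc1/A went with another level of these mRNAs. No ribosomal protein gene passed the test in either direction. In edgeR's quasi-likelihood test with Benjamini-Hochberg adjustment, 82 members passed the filter on low counts and 0 were called higher or lower at an adjusted p under 0.05. Over all 12224 genes tested, 0.00818% were called higher and 0 lower. DESeq2 and limma-voom also called 0 members, where DESeq2 called 0.45% of all genes higher and 2.23% lower. At an unadjusted p under 0.05, 3 members were higher and 0 lower in edgeR, against 4.31% of all genes higher and 7.66% lower. On total gene reads 0 of 82 members were called, against 0.00764% of all 13095 genes called higher. DESeq2 and limma-voom called 0 members there too, where DESeq2 called 0.451% of all genes higher and 2.21% lower. At an unadjusted p under 0.05, 1 member was higher and 0 lower in edgeR, against 4.15% of all genes higher and 7.32% lower.

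The size of the differences was small. Log2 fold changes, given throughout as Nc1Bio minus BirA, had a median of 0.05 over the 82 members on unique reads and 0.04 on total reads. The median of all genes was 0.00, and that of the 2178 genes of at least 100 CPM (read counts scaled to a common library size) was 0.05. The log2 fold change was above 0 in 60 of 82 members (73.2%) with either count, against 49.6% of all genes. Of the genes of at least 100 CPM it was above 0 in 1360 of 2178 on unique reads and 1075 of 1701 on total reads. It was within 0.2 of 0 in 71 members on unique reads and in 80 on total reads. For 65 of 82 members the whole 95% interval lay between -0.5 and 0.5 on unique reads, against 35.2% of all genes and 73.9% of the genes of at least 100 CPM. On total reads this held for 79 of 82, against 35.2% of all genes and 74.0% of those of at least 100 CPM. These intervals bound most members to less than a 0.5 log2 change in these libraries.

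The median above 0 was not stable. Without BirA 2 it was -0.01 on unique reads, with 37 members above 0, and without Nc1Bio 1 it was 0.09.

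Large and small subunit genes did not separate. The median log2 fold change was 0.05 for the 50 large subunit genes tested, with 37 above 0, and 0.05 for the 32 small subunit genes tested, with 23 above 0. On total reads the medians were 0.04 and 0.04. Genes with CTTTCC or CTCTTT near the start had a median of 0.05, and those without had 0.04, with 22 of 31 above 0 in each.

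**Figure D2:**
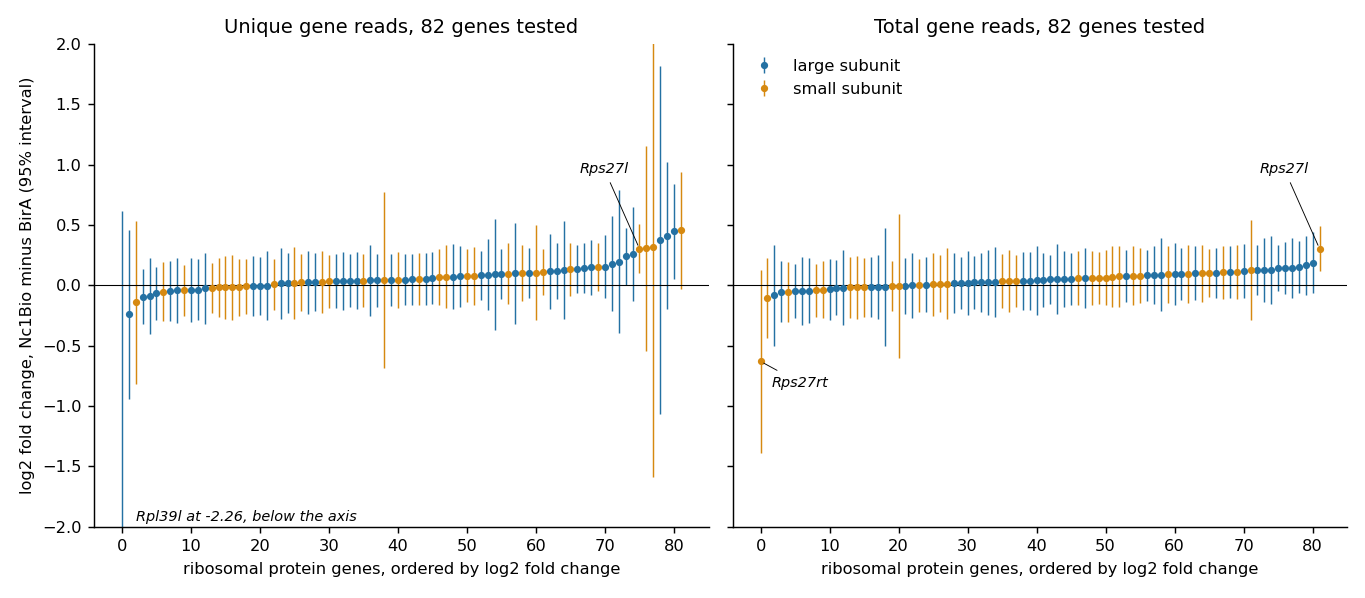
Points give the log2 fold change of each tested ribosomal protein gene, Nc1Bio minus BirA (y axis), with its 95% interval, ordered by size, on unique reads (left) and total reads (right). Bars that leave the panel are drawn to its edge, and *Rpl39l* lies below the axis at -2.26. Most intervals cross 0, and *Rps27l* is the gene whose interval stays above 0 in both panels.

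*Rps27l*, at chr9:66946086-66949516, encodes a close relative of the small subunit protein Rps27 and is known as a gene that p53 induces. It had 150, 144 and 157 normalised CPM in BirA and 178, 182 and 196 in Nc1Bio. Every Nc1Bio library was above every BirA library. The means were 150 ± 6.56 and 185 ± 9.76 normalised CPM (SD, n = 3 each), a log2 fold change of 0.30 with a standard error of 0.09 and an edgeR adjusted p of 0.284. Since 94.0% of its reads were unique, total reads gave almost the same difference, a log2 fold change of 0.30 with an edgeR adjusted p of 0.275. The total values were 109 to 118 normalised CPM in BirA and 137 to 146 in Nc1Bio. The lowest adjusted p for *Rps27l* among the alternatives on unique reads was 0.0903, by DESeq2, and DESeq2 on total reads gave 0.0545, so that it passed in neither. *Trp53* itself had a log2 fold change of 0.00 and *Mdm2*, another p53 target, of 0.07, with adjusted p of 0.996 and 0.874. These are mRNA levels, and whether p53 had a part in the *Rps27l* values was not tested.

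The groups did not overlap for 9 of the 82 members on unique reads, all 9 higher in Nc1Bio (11.0%), against 8.45% of all genes higher, 9.98% lower and 18.4% in either direction. They were *Rps27l*, *Rpl27*, *Rpl29*, *Rps16*, *Rpl6*, *Rpl15*, *Rpl21*, *Rpl11* and *Rps26*. On total reads this held for 3 members (3.66%), against 8.42% of all genes higher and 18.4% in either direction. They were *Rps27l*, *Rpl29* and *Rpl28*.

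*Rpl27*, a large subunit protein, had 41.1, 28.8 and 45.2 normalised CPM in BirA and 49.5, 52.1 and 55.5 in Nc1Bio. Its log2 fold change was 0.45, with a 95% interval of 0.06 to 0.84 and an adjusted p of 0.381. BirA 2 was the lowest library, and 3.51% of its reads were unique. On total reads the groups overlapped, with 830 to 941 normalised CPM in BirA and 855 to 1028 in Nc1Bio and a log2 fold change of 0.08.

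*Rpl29* had 126, 125 and 122 normalised CPM in BirA and 143, 133 and 164 in Nc1Bio, with Nc1Bio 3 the highest. The log2 fold change was 0.24, with a 95% interval of 0.01 to 0.48 and an adjusted p of 0.41. Here the groups stayed apart on total reads, with 491 to 520 and 540 to 579 normalised CPM and a log2 fold change of 0.14.

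*Rps27a*, which is translated as a fusion of ubiquitin with a small subunit protein, had 23.5, 17.7 and 16.5 normalised CPM in BirA and 23.7, 22.5 and 32.7 in Nc1Bio. The groups overlapped, and the log2 fold change was 0.46 on unique reads and 0.01 on total reads. Only 1.43% of its reads were unique. *Rpl36a* and *Rpl21*, both of the large subunit, behaved likewise, at 0.41 and 0.26 on unique reads and 0.19 and 0.02 on total reads.

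This gap between the counts was found mainly among genes of low unique share. In the class under 5%, all 14 members tested on unique reads had a log2 fold change above 0, with a median of 0.23, from 2 to 808 unique reads per library. On total reads the 15 members of this class had a median of 0.05, with 11 above 0. In the 3 classes above, the unique medians were 0.04, 0.04 and 0.01. Over all members tested with both counts, 75 of 81 kept the same sign and 70 of 81 lay within 0.1 of each other. The 5 with the largest gap were *Rps27a*, *Rps27*, *Rpl27*, *Rpl21* and *Rpl36a*, all with under 5% of reads unique.

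**Figure D3:**
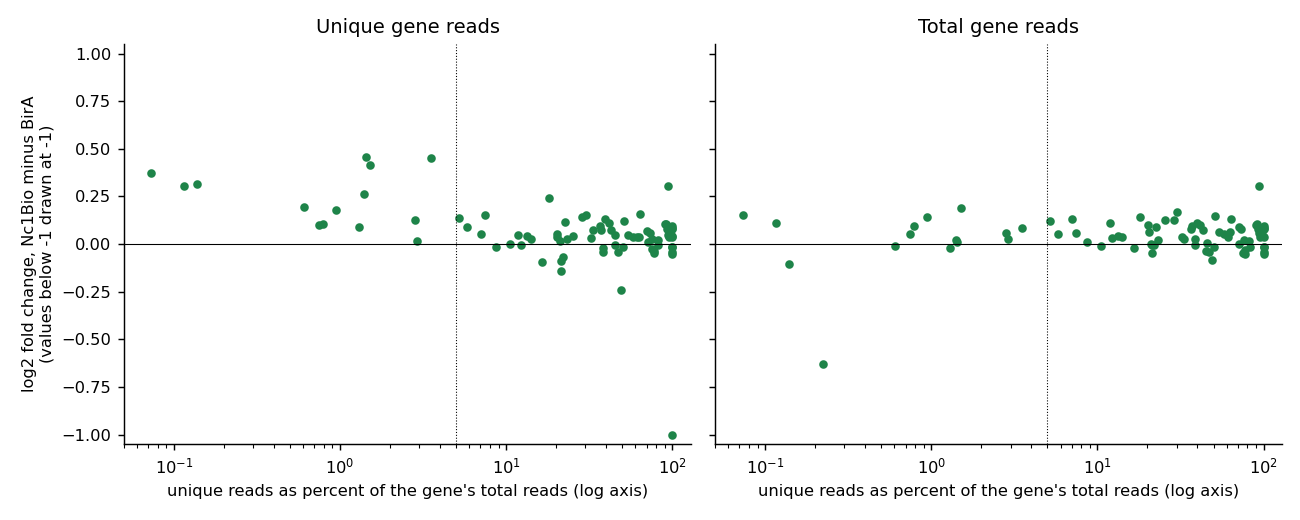
Each point is a tested ribosomal protein gene, with its unique reads as a percent of its total reads on the x axis (log scale) and its log2 fold change, Nc1Bio minus BirA, on the y axis, on unique reads (left) and total reads (right). The dotted line marks 5%. To its left all 14 genes lie above 0 on unique reads, while on total reads 11 of 15 do.

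The proteins of the stalk, to which elongation factors bind, were near 0. *Rplp0* had 3394, 2968 and 3316 normalised CPM in BirA and 3082, 3393 and 3444 in Nc1Bio. Its lowest libraries were BirA 2 and Nc1Bio 1, and the log2 fold change was 0.04 with a 95% interval of -0.19 to 0.26. *Rplp1* was at -0.04, *Rplp2* at 0.05 and *Rpl12*, which forms the stalk base, at 0.03.

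*Rpl5* and *Rpl11* bind the 5S rRNA and, outside the ribosome, Mdm2. *Rpl11* had 628, 522 and 610 normalised CPM in BirA and 650, 645 and 660 in Nc1Bio. All Nc1Bio libraries were above BirA by a narrow margin, and BirA 2 was the lowest. The log2 fold change was 0.15 with a 95% interval of -0.08 to 0.38. *Rpl5* had 1900, 1576 and 1913 in BirA and 1629, 1836 and 1792 in Nc1Bio, with overlapping groups and a log2 fold change of -0.04. The 2 partners of the 5S particle had opposite signs. Both intervals included 0 (-0.29 to 0.22 for *Rpl5*), so neither direction was resolved.

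Around the exit of the peptide tunnel, 6 of 8 genes were above 0. Their log2 fold changes ran from -0.04 to 0.10, with a median of 0.04. At the mRNA entry and decoding site of the small subunit, 2 of 5 genes were above 0, with a median of -0.01. *Rps3*, which lines the entry, had 3217, 2808 and 3253 normalised CPM in BirA and 2826, 3084 and 3276 in Nc1Bio. BirA 2 and Nc1Bio 1 were the 2 lowest, and the log2 fold change was -0.01. *Rps9* and *Rps15*, of the same site and almost wholly unique, were at -0.04 and -0.05. At the exit side of the mRNA channel 4 of 5 genes were above 0, with a median of 0.02. There *Rps26* had 542, 521 and 561 normalised CPM in BirA and 567, 592 and 593 in Nc1Bio, a log2 fold change of 0.11 with a 95% interval of -0.08 to 0.30.

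*Rpl22* and its paralogue *Rpl22l1* were examined for their known link to T cell development. *Rpl22*, at chr4:152325742-152334071, had 792, 675 and 743 normalised CPM in BirA and 707, 742 and 821 in Nc1Bio. *Rpl22l1*, at chr3:28805436-28807424, had 119, 99.5 and 119 in BirA and 105, 126 and 125 in Nc1Bio. Both overlapped between the groups. The log2 fold change was 0.04 for *Rpl22* (95% interval -0.20 to 0.28) and 0.07 for *Rpl22l1* (-0.20 to 0.34). On unique exon reads per kilobase of exon, *Rpl22* had a mean of 260 CPM in BirA and 261 in Nc1Bio, and *Rpl22l1* had 58.4 and 59.9. With 37.1% of its reads unique, the level of *Rpl22l1* is understated more than that of *Rpl22*, which had 95.9%.

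The table held 8 paralogues of ribosomal protein genes. *Rpl10l*, an autosomal copy of *Rpl10* known from testis, had 0 reads in every library. *Rpl3l*, known from muscle, had 0 to 9 reads and was not tested. *Rpl39l*, also a testis-enriched gene, had 66, 2 and 12 reads in BirA and 2, 2 and 11 in Nc1Bio. Its log2 fold change of -2.26 (95% interval -5.13 to 0.62) came from BirA 1, without which it was -0.28. *Rpl36al* and *Rpl7l1* were broadly expressed, at 0.07 and -0.09. *Rps27rt*, with 309 to 965 total but at most 5 unique reads, was tested on total reads only. It had 35.3, 44.0 and 17.6 normalised CPM in BirA and 20.5, 16.7 and 25.4 in Nc1Bio, a log2 fold change of -0.63 with an edgeR adjusted p of 0.494. Nearly all of its reads had other possible places, so that its level is uncertain.

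**Figure D4:**
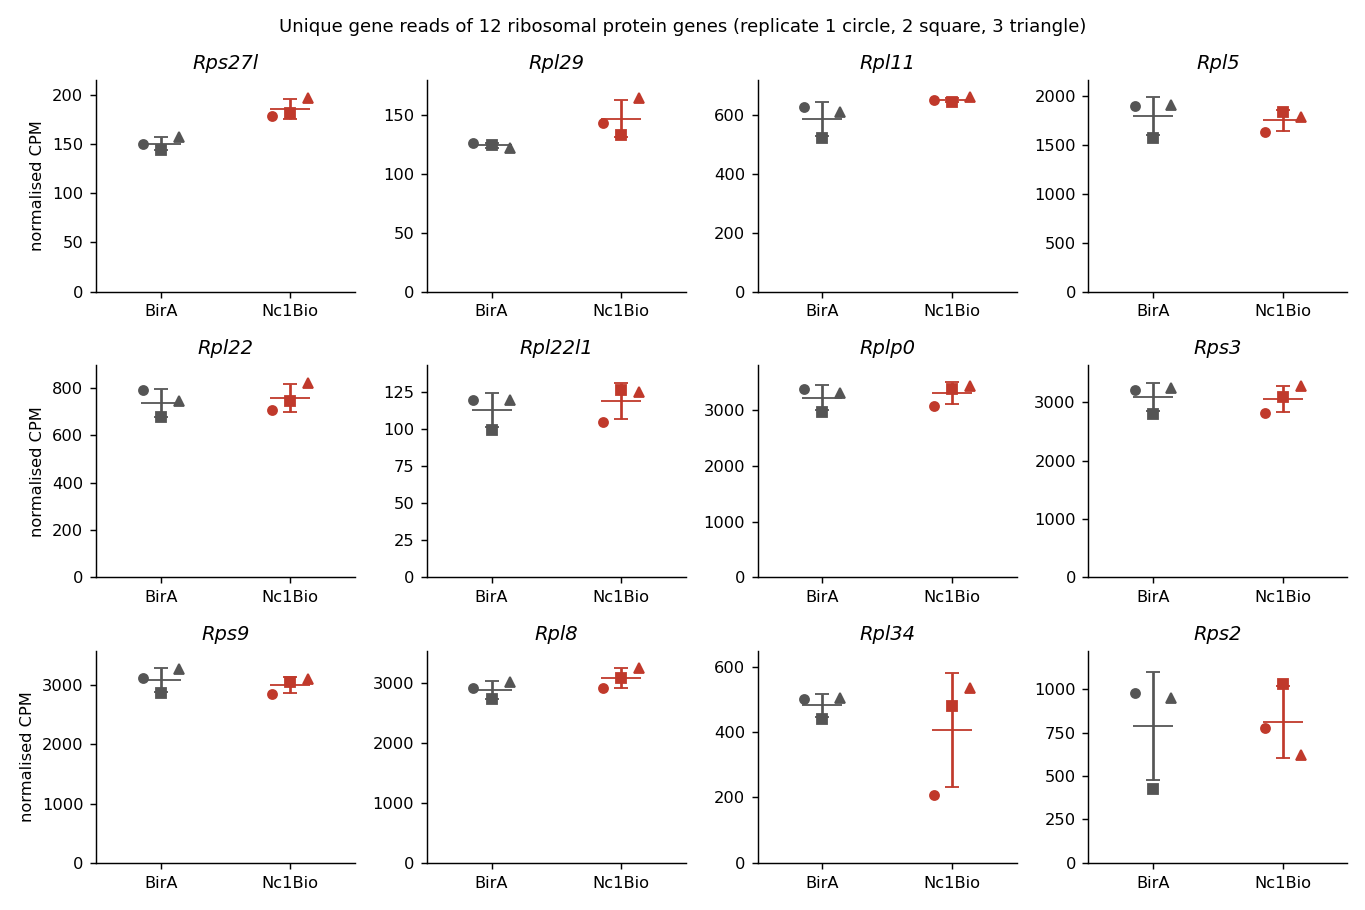
Points give the normalised CPM of unique reads (y axis, from 0) of 12 ribosomal protein genes in each library, BirA in grey and Nc1Bio in red, with the mean and SD of 3 libraries. In *Rps27l*, *Rpl29* and *Rpl11* the groups do not overlap, *Rpl34* has 1 low library, Nc1Bio 1 with 209, and *Rps2* is low in BirA 2.

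The lower end of the list held no gene with an unadjusted p under 0.05. *Rpl34*, as above, had 501, 440 and 503 normalised CPM in BirA and 209, 480 and 534 in Nc1Bio. Its log2 fold change was -0.24, and 0.08 without Nc1Bio 1. *Rpl30* had 193, 161 and 173 in BirA and 170, 164 and 160 in Nc1Bio, a log2 fold change of -0.09. For *Rpl38*, known for its part in the translation of *Hox* mRNAs, it was -0.07 on unique reads and 0.00 on total reads. *Rps12*, *Rpl37a* and *Rpl26* were at -0.14, -0.05 and -0.04 on unique reads. On total reads they were at -0.0049, -0.05 and 0.03.

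The libraries of each group differed more among themselves than the groups did. For each gene the log2 of its normalised CPM was set against its mean over the 6 libraries. The median deviation of the 82 members was 0.05, -0.15 and 0.03 in BirA 1, 2 and 3. It was -0.06, 0.05 and 0.11 in Nc1Bio 1, 2 and 3. BirA 2 lay below a gene's mean for 77 of 82 members and was the lowest library for 57. Nc1Bio 3 was the highest library for 40. Large and small subunit genes had the same lowest and highest library, with -0.15 and -0.15 in BirA 2 and 0.10 and 0.12 in Nc1Bio 3.

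**Figure D5:**
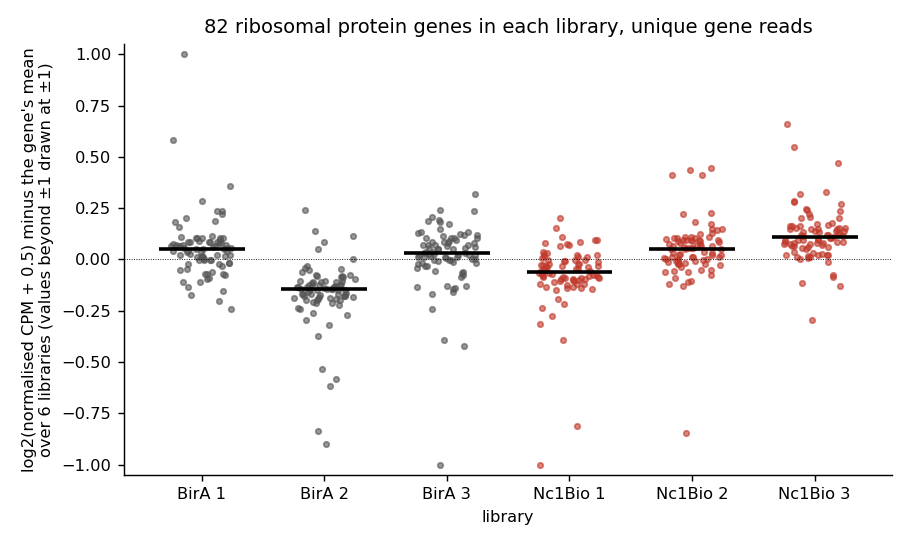
Each point is a ribosomal protein gene in a library, drawn as its log2 normalised CPM minus its mean over the 6 libraries (y axis), with values beyond 1 drawn at 1, and black lines are the medians of 82 genes. BirA 2 lies lowest with a median of -0.15 and Nc1Bio 3 highest with 0.11, and the libraries of each group lie on both sides of 0.

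The libraries also differed in markers of other cells. The summed level of 8 granulocyte genes was 438, 8748 and 445 normalised CPM in BirA and 357, 2781 and 5330 in Nc1Bio. Hence BirA 2, lowest in ribosomal protein mRNA, was highest in granulocyte genes, but Nc1Bio 3, highest in ribosomal protein mRNA, was second. The sum of 6 erythroid genes ran from 17644 to 97497 normalised CPM and was highest in Nc1Bio 3. Genes of B cells summed to 413, 154 and 150 in BirA and 100, 59.9 and 81.4 in Nc1Bio, with a log2 fold change below 0 in 10 of 10. DESeq2 called 5 of these 10 lower, against 2.23% of all genes. *Cd4*, *Cd8a* and *Cd8b1* summed to 21.1 to 52.6, while 11 DN thymocyte genes summed to 3763 to 5083, with 11 of 11 above 0 and a median of 0.28 in log2 fold change. Of these 11, DESeq2 called 2 higher, against 0.45% of all genes. NK and innate lymphoid genes summed to 689, 690 and 690 in BirA and 327, 415 and 487 in Nc1Bio. The log2 fold change was below 0 in 8 of 8 tested genes, and DESeq2 called 2 of them lower. Thus the B cell and the NK sums were lower in every Nc1Bio library than in any BirA library. By edgeR, 0 genes of the B cell, DN thymocyte and NK lists were called. Macrophage genes summed to 663, 1106 and 136 in BirA and 276, 299 and 663 in Nc1Bio, with 7 of 7 below 0 but overlapping groups. Dendritic cell genes summed to 16.0 to 58.3 and thymic epithelial genes to 37.5 to 62.3. The part of these cells in the ribosomal protein values was not tested.

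Within a group the members varied about as much as other abundant genes. Their median within-group SD was 0.12 on the log2 scale, against 0.22 for all genes and 0.13 for the genes of at least 100 CPM. On total reads it exceeded 0.2 in 5 tested members, *Rps27rt*, *Rps12*, *Rpl13*, *Rpl34* and *Rps2*. *Rpl13*, of the large subunit, had 38409, 24770 and 37426 total reads in BirA and 28277, 33676 and 25964 in Nc1Bio. *Rps2* had 47892, 34725 and 47752 in BirA and 37123, 48404 and 39550 in Nc1Bio. In both, BirA 1, BirA 3 and Nc1Bio 2 were the 3 highest libraries.

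Levels of different members were compared per kilobase of annotated exon, which joins the exons of all isoforms. On unique exon reads the highest were *Rplp1* with a mean of 2768 CPM per kilobase over the 6 libraries, *Rps15* with 2524, *Rpl8* with 2231, *Rps14* with 2088 and *Rplp0* with 2004. *Rplp1* was the highest on total exon reads too, with 4190. The lowest tested were *Rpl24* with 0.720, *Rps27* with 1.32, *Rpl39l* with 1.36, *Rps6* with 1.71 and *Rps12* with 3.20. Of these *Rpl24*, *Rps27* and *Rps6* had under 1% of reads unique, and on total exon reads *Rps6* had a mean of 1292 CPM per kilobase in BirA and 1326 in Nc1Bio. *Rpl39l* was low on both, with 0.939 on total exon reads.

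Some proteins of the cytosolic ribosome bear other names. *Fau*, which encodes Rps30 as a fusion, had 1534, 1217 and 1335 normalised CPM in BirA and 1198, 1210 and 1298 in Nc1Bio, a log2 fold change of -0.14. *Rack1*, on the head of the small subunit, was at 0.04. Neither was called.

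Translation factors and other genes whose mRNAs are known to carry a TOP motif were read for comparison. Of 20 tested, 14 were above 0, the median was 0.05 and 0 were called by edgeR or DESeq2. *Eif4a2*, a helicase of translation initiation, had 106, 83.4 and 72.1 normalised CPM in BirA and 67.5, 63.0 and 59.99 in Nc1Bio. All Nc1Bio libraries were below BirA, with a log2 fold change of -0.46 and an edgeR adjusted p of 0.322. This was so for 1 of the 20 genes, against 9.98% of all genes. For 5 of the 20 all Nc1Bio libraries were above BirA, against 8.45% of all genes. *Npm1*, a chaperone of ribosome assembly, had 1642 to 1727 and 1785 to 2028, a log2 fold change of 0.21 with an adjusted p of 0.416. *Hnrnpa1* and *Btf3* were at 0.22 and 0.20. Summed over the list, BirA 2 was again the lowest library (-0.14) and Nc1Bio 3 the highest (0.09).

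The nuclear genes of the mitochondrial ribosome, which translates mitochondrial mRNAs, were read beside the cytosolic ones. Of 77 tested, 70 had a log2 fold change above 0, with a median of 0.16, against 49.6% of all genes above 0. By edgeR 0 were called, 9 had an unadjusted p under 0.05, all higher, against 4.31% of all genes, and DESeq2 called 0. *Mrps33* had 72.3, 78.9 and 87.5 normalised CPM in BirA and 94.4, 98.2 and 112 in Nc1Bio, a log2 fold change of 0.35 with an adjusted p of 0.317. *Mrps18b* was at 0.44, *Mrpl42* at 0.26 and *Mrpl39* at 0.26. Summed over 78 genes the deviations were -0.13, -0.16 and 0.05 in BirA and 0.07, 0.07 and 0.08 in Nc1Bio, so that BirA 1, which was high for the cytosolic genes, was low here. The difference between both kinds of ribosome was not tested.

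Among 12 known regulators of ribosomal protein synthesis, edgeR called 0. DESeq2 called 1 higher and 0 lower, against 0.45% of all genes higher and 2.23% lower. *Myc* had 184, 199 and 203 normalised CPM in BirA and 324, 267 and 290 in Nc1Bio, a log2 fold change of 0.59 with an edgeR adjusted p of 0.109, and DESeq2 called it (adjusted p = 4.08e-05). *Mycn* was at -0.94 with an adjusted p of 0.448, from 12.7, 4.87 and 6.04 in BirA and 5.50, 3.57 and 3.24 in Nc1Bio. *Larp1* was at 0.19, *Rps6kb2* at 0.29 and *Mtor* at -0.14, with adjusted p of 0.598, 0.574 and 0.693.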

How the data were processed

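Poly(A) libraries had been made from 50 ng of RNA with 13 PCR cycles and read as 59-base single reads. Per the study's methods the authors trimmed the first 10 bases, aligned to GRCm38 and counted with featureCounts. The deposited tables hold counts per gene and library, for unique and total reads over genes and exons. This layout is not one that featureCounts writes, and the program behind it and the use of strand are not given in the sources used here. One further gene of the cytosolic ribosome is not reported here. TPM and RPKM columns were not used.

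All genes were fitted per count column with edgeR 4.0.16 (filterByExpr, TMM scaling, quasi-likelihood test, 3 libraries against 3, Benjamini-Hochberg adjustment over all genes, in R 4.3.3). DESeq2 1.42.0 and limma 3.58.1 (voom) were alternatives. Normalised CPM used TMM library sizes, deviations an offset of 0.5 CPM. Shares are of raw reads. The fits were also run on simulated counts with known changes larger than those of most members. That run does not cover changes as small as theirs. The members and gene lists were chosen with earlier results of these data known. Genes named were the 10 of lowest p in each direction, the stalk, 5S, paralogue and *Rpl22* genes, the extremes of level and unique share, the largest gaps between counts, members that did not overlap, and the 4 of lowest p in other lists. *Rpl13* and *Rps2* totals were added after their values were seen, as were fits on total reads and without haemoglobin genes.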

Additional observations from a re-analysis of the deposited data

How the results depend on the processing

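With any of 18 alternatives on unique reads, and with those of them that could be run on total reads, 0 members were called. The median log2 fold change over left-out libraries ran from -0.01 to 0.09 on unique reads and from -0.02 to 0.10 on total reads. The number of members above 0 ran from 37 to 74 with either count, lowest without BirA 2. The share of reads was 10.2% in BirA and 10.005% in Nc1Bio on total gene reads, 10.4 and 10.2% on total exon reads, and 11.7 and 11.9% on total gene reads without haemoglobin genes. On unique reads without haemoglobin genes it was 6.73% in BirA and 6.84% in Nc1Bio. With TMM scaling from genes outside the members the value for Nc1Bio was 7.04%. That value divides the members' reads by the scaled size of the other genes. It is therefore not a share of all reads and cannot be set against the other values. With a library left out the share of unique gene reads was 6.22 to 6.74% in BirA and 6.33 to 6.61% in Nc1Bio. Among 31 named members, 527 of 552 values under the alternatives had the direction and the side of the threshold reported, 25 changed sign and 0 passed the threshold. On exon reads *Rps12* was at 0.057 (unique) and 0.032 (total). Outside the 31, *Rps27*, *Rpl10*, *Rpl13* and *Rpl26* were at 0.32, 0.09, 0.20 and -0.04 on unique reads. On total reads their signs changed, to -0.10, -0.02, -0.01 and 0.03. The others of the 31 that changed sign did so with a library left out. Their ranges were -0.48 to 0.079 for *Rpl34*, -0.15 to 0.020 for *Rpl7l1*, -0.14 to 0.0064 for *Rps15*, -0.018 to 0.088 for *Rplp0* and -0.13 to 0.044 for *Rplp1*. They were -0.00058 to 0.083 for *Rplp2*, -0.050 to 0.075 for *Rpl12*, -0.12 to 0.019 for *Rpl5*, -0.022 to 0.093 for *Rpl22* and -0.0061 to 0.16 for *Rpl22l1*. For *Rpl36al* the range was -0.016 to 0.15, for *Rps2* -0.25 to 0.23, for *Rps3* -0.077 to 0.045 and for *Rps9* -0.087 to 0.0070. The lowest adjusted p of a named member among these values was 0.0903, for *Rps27l* by DESeq2, which gave 0.0545 on total reads.

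The labels do not say whether libraries with the same replicate number were paired. Over genes, deviations of libraries with the same number correlated at 0.339, 0.117 and -0.136. Those of libraries with different numbers ran from -0.415 to 0.283. Both ranges overlap, so these values cannot decide whether the libraries were paired. With the replicate number as a replicate block, 0 members were called, the median log2 fold change was 0.05 and 60 members were above 0.

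Depth limits the members of low unique share, which had from 2 unique reads per library, and reads shared with pseudogenes limit the total count. With 3 libraries a group, a change smaller than the intervals given could not be seen.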
